A study of Homo sapiens with 24 samples.

Results

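A set of 9 complement genes was followed across the libraries: the components C1R, C1S, C3, C5 and CFB, the secreted inhibitor SERPING1, and the membrane regulators CD46, CD55 and CD59. They were chosen by name from the table of transcript levels, and all 9 of the 9 listed genes were found among its 60609 gene rows. The cells were A549, a human line derived from a lung adenocarcinoma. All cells received siRNA for 48 h, either a pool against BOP1 (siBOP1), a factor that works in the assembly of the large ribosomal subunit, or an siRNA against firefly luciferase (siFLuc), which has no target in human cells and served as control. They were then either mock-treated or stimulated with interferon beta (IFN, 1000 U/mL), and were harvested 8 h or 12 h later. This gives 8 groups of 3 libraries, 24 in all: siFLuc mock, siFLuc IFN, siBOP1 mock and siBOP1 IFN, each at 8 h and at 12 h. All groups thus carry a transfected siRNA, and no untransfected cells were analysed here. The knockdown was partial: BOP1 itself stood at 23.5% to 29.6% of the siFLuc mean in the 4 siBOP1 groups.

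Complement is a cascade of proteases and binding proteins that tags and lyses foreign or damaged cells. In the classical pathway the recognition protein C1q carries the paired proteases C1r and C1s, which cleave C4 and C2 to build an enzyme that splits C3; in the alternative pathway factor B, the product of CFB, supplies the protease that splits C3. C5 is split next and starts the pore that lyses the target. C1 inhibitor, the product of SERPING1, binds and removes active C1r and C1s, while CD46 and CD55 stop the C3-splitting enzymes on the cell surface and CD59 blocks the pore. The liver makes most complement in plasma, and epithelial cells of the airway are known to make several components locally.

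Levels are given in TPM, a transcript unit corrected for transcript length and scaled so that each library sums to 1000000. Levels of different genes can therefore be set side by side, but a rise of some transcripts lowers the share left for the rest. Epithelial markers were present in every library. The keratins KRT8 (2086 to 3803 TPM) and KRT18 (1785 to 2862 TPM) were high in every library, and KRT19, EPCAM and CDH1 were above 1 TPM in every library. Of 5 leukocyte markers 4 stayed under 1 TPM throughout, with CD14 at 1.81 to 5.26 TPM, and all 3 endothelial markers stayed under 1 TPM. Of 3 fibroblast markers, COL3A1 and PDGFRB stayed under 1 TPM, while COL1A1 was present in every library at 5.37 to 19.3 TPM, against 1.92 to 5.48 TPM for EPCAM. The part of this signal in the results was not tested. The hepatocyte markers ALB, TTR and APOA2 reached at most 1.02 TPM, 0.336 TPM and 0 TPM. In bulk RNA of this kind, fewer cells that express a gene and less RNA per cell cannot be told apart.

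One library of each group carries the column number 4 where the labels number the replicates 1 to 3, and these libraries stood apart for the genes described here. The library numbered 4 was the lowest of its group for C1R, C1S and CFB in all 8 groups and for C3 in all 4 groups at 8 h and 3 of 4 at 12 h. On the log2 scale it lay 0.07 to 0.89 below the mean of the other two for C1R and 0.24 to 1.74 below it for CFB. It was also the lowest for CD59 in all 4 groups at 12 h, by 0.57 to 0.83, and the highest for CD55 in 3 of those 4. The number 4 occurs once in every group, so it is balanced over siRNA, treatment and time. Values below are listed in the order of the column numbers 1, 2 and 4.

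Before IFN, the membrane regulators CD59 and CD46 were among the most abundant of the 9 transcripts, while CD55 held places 4 to 7. CD59 had the highest mean in all 4 mock groups, at 201 ± 6.13 TPM in siFLuc mock cells at 8 h (SD, n = 3). Next came CD46 and C3, whose ranges overlapped there, then C1S, CD55, C1R and CFB, each overlapping its neighbour. C5 was low at 15.1 TPM, and SERPING1, the last, was listed at 0 in every siFLuc mock library. Under IFN the order was different, with C3 the highest mean in all 4 IFN groups. At 12 h under IFN, the means of C1R, C1S and CFB also stood above that of CD59 in both siRNA groups. There C3, C1R, C1S, CFB and CD59 overlapped one another from step to step with either siRNA. C5 and SERPING1 held the lowest 2 places in all 8 groups, and their ranges overlapped in 3 of the 4 IFN groups.

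**Figure D1:**
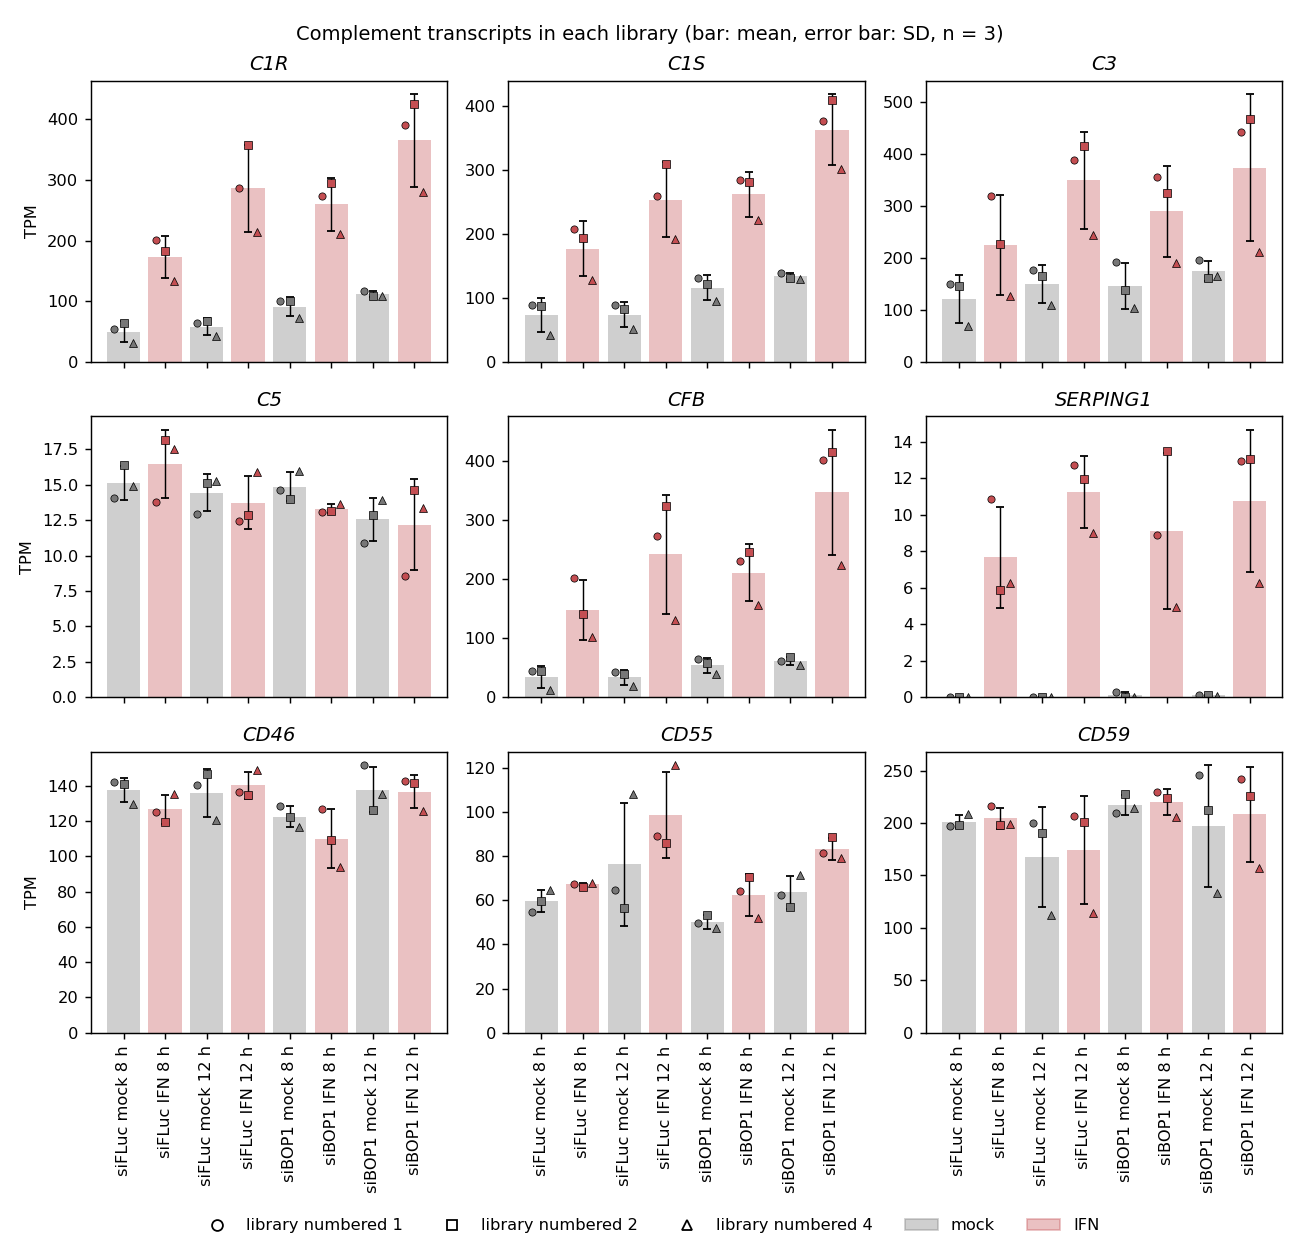
TPM of each complement transcript in the 8 groups, with a bar for the mean of 3 libraries, an error bar for the SD and a marker for each library by its column number; grey is mock and red is IFN. C1R, C1S, C3, CFB and SERPING1 have higher means in every IFN group than in its mock group, while no difference of C5, CD46 or CD59 passed the test; the triangles, for the number 4, lie lowest for C1R, C1S and CFB in all 8 groups.

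The sequences around the start sites are given first, since IFN acts on transcription through factors that bind short motifs there. The promoter table of RefSeq (GRCh38.p14) held 12 windows for 6 of the 9 genes, C1R, C5, CFB, CD46, CD55 and CD59. Each window runs from 250 bases before to 50 after a start site. Both strands were searched for 2 motifs: the core of the interferon-stimulated response element, GAAA, any 2 bases and GAAA again, and the palindromic core of the gamma-activated site, TTC, any 3 bases and GAA. The first is in 3.57% and the second in 7.66% of the 35116 windows of the table, and they overlap in none of the windows printed here. The windows shown are those of CFB and C1R, the genes with a window that rose under IFN, and of CD59, which has a match but passed no IFN comparison. Capitals mark the matches, and each window is given 5′ to 3′ on the strand of its gene.
CFB, chr6:31945845-31946144, plus strand: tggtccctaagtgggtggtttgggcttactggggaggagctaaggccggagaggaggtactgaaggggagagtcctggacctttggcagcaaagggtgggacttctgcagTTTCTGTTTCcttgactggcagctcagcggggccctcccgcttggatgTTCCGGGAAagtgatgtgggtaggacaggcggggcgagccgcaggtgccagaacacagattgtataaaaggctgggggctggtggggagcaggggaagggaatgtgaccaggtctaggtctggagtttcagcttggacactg
C1R, first start, chr12:7092396-7092695, minus strand: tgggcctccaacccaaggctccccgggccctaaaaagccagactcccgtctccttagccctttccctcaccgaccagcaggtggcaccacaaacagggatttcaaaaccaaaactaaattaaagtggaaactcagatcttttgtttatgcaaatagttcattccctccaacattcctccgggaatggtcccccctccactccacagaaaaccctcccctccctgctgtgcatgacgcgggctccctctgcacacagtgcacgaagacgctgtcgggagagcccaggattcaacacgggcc
C1R, second start, chr12:7091844-7092143, minus strand: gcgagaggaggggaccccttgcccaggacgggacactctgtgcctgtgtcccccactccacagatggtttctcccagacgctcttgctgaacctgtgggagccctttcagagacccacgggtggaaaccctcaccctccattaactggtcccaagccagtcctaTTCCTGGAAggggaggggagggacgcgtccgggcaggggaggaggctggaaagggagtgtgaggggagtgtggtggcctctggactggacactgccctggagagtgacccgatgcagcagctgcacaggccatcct
CD59, first start, chr11:33736430-33736729, minus strand: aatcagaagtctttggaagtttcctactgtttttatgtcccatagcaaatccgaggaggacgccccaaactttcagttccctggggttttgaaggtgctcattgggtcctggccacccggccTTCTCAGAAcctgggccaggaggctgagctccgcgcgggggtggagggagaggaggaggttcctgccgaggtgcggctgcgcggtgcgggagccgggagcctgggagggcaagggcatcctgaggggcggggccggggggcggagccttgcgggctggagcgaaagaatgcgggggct

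The CFB window was the only one of the 12 with a match to the response element core, read on the opposite strand at positions -140 to -131 from the start site. It also held a gamma-activated site core at -92 to -84. The first C1R window held neither motif, and the second held a gamma-activated site core at -86 to -78. The first CD59 window held 1 such core at -128 to -120, and the second, not printed, held the same bases at -184 to -176. The other CD59 windows held neither motif. Windows of C5, CD46 and CD55 held neither motif. A match is a description of the letters, and whether any factor binds there was not tested.

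The first comparison was IFN against mock treatment within each siRNA and time. C1R, C1S, CFB and SERPING1 rose in all 4 comparisons, and C3 rose in siFLuc cells at 12 h. No complement gene fell, and C5, CD46, CD55 and CD59 passed the test in none of the 4. In total 4 of the 9 were higher with siFLuc at 8 h, 4 with siBOP1 at 8 h, 5 with siFLuc at 12 h and 4 with siBOP1 at 12 h (limma on log2(TPM + 1), Benjamini-Hochberg adjusted p under 0.05). Over all 16062 genes tested, 5.77%, 5.99%, 7.06% and 7.17% were called higher in these comparisons, and 5.07%, 9.11%, 6.43% and 7.58% lower. In either direction, 4 of the 9 were called in all 4 comparisons and 5 in at least 1, against 6.39% and 23.9% of all genes. Median-of-ratios scaling, which moves the centre of all genes, turned the numbers called higher and lower from 927 and 814 to 1141 and 512, from 962 and 1464 to 1324 and 698, from 1134 and 1032 to 1373 and 803, and from 1152 and 1218 to 1421 and 856. The count of 0 lower complement genes was also 0 at an unadjusted p under 0.05, and in every alternative run. The median log2 fold change of the 9 was 0.86, 0.98, 1.20 and 1.01, against -0.09, -0.14, -0.06 and -0.08 over all genes tested. When the column number was entered as a block, 5, 5, 6 and 5 of the 9 were higher, against 8.24%, 8.56%, 11.2% and 11.4% of all genes, and 0 were lower, against 12.7%, 20.4%, 15.8% and 16.6%. The labels do not say that the 3 libraries of a group came from separate cultures, so the p-values measure only the spread between these libraries.

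C1R (ENSG00000159403.18; chromosome 12, 7080199 to 7092607, minus strand, protein-coding, GRCh38 coordinates of GENCODE 29 as for the genes that follow) encodes the protease that activates C1s within the C1 complex. In siFLuc cells at 8 h it read 54.2, 64.9 and 31.5 TPM in the mock libraries and 201, 183 and 134 TPM in the IFN libraries. At 12 h the siFLuc mock libraries read 65.0, 67.2 and 42.6 TPM and the IFN libraries 287, 357 and 214 TPM. Every IFN library lay well above every mock library at both times, and the lowest IFN value of 12 h was above the highest of 8 h. With siBOP1 the mock libraries read 99.9, 101 and 72.6 TPM at 8 h and 117, 109 and 108 TPM at 12 h. The siBOP1 IFN libraries read 274, 295 and 210.4 TPM at 8 h and 391, 424 and 279.6 TPM at 12 h. The groups again did not overlap. The mean was 3.44-fold higher under IFN at 8 h and 4.91-fold at 12 h with siFLuc, and 2.85-fold and 3.27-fold with siBOP1. The log2 fold changes were 1.80 and 2.27 with siFLuc (adjusted p 1.83e-05 and 5.83e-07) and 1.50 and 1.68 with siBOP1 (adjusted p 0.000161 and 4.18e-05), each with an SE of 0.25. Ordered by size, C1R ranked between 165 and 295 among the 16062 genes.

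C1S (ENSG00000182326.15; chromosome 12, 6988259 to 7071032, plus strand), the partner protease, cleaves C4 and C2. It read 89.5, 87.5 and 42.2 TPM in siFLuc mock libraries at 8 h and 208, 194 and 128 TPM under IFN. At 12 h its siFLuc values were 88.9, 82.0 and 51.3 TPM with mock treatment and 259, 309 and 191 TPM with IFN. No mock value reached an IFN value. In siBOP1 cells the mock values were 132, 122 and 94.9 TPM at 8 h and 139, 132 and 129.9 TPM at 12 h, against 284, 280.2 and 221 TPM and 376, 409 and 301 TPM under IFN. C1S was thus 2.42-fold and 3.42-fold higher on IFN in siFLuc cells, and 2.25-fold and 2.71-fold higher in siBOP1 cells, at 8 h and 12 h. The log2 fold changes were 1.31 and 1.77 (adjusted p 0.00133 and 3.66e-05) and 1.17 and 1.42 (adjusted p 0.00309 and 0.000463), with an SE of 0.26. A fit of only the groups compared ended the call in siFLuc cells at 8 h (adjusted p 0.0617).

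The 2 proteases did not keep the same ratio. In siFLuc cells C1S exceeded C1R in mock libraries, with a ratio of 1.45 ± 0.18 at 8 h and 1.26 ± 0.09 at 12 h (SD, n = 3). Under IFN the ratio was 1.02 ± 0.05 and 0.89 ± 0.02 (SD, n = 3). In siBOP1 cells it was 1.28 ± 0.06 and 1.20 ± 0.01 with mock treatment and 1.01 ± 0.05 and 1.00 ± 0.07 with IFN (SD, n = 3). The IFN and mock ranges of the ratio did not overlap in any of the 4 pairs of groups, and in siFLuc IFN cells at 12 h the ratio was below 1 in every library. This difference in ratio was not tested. C1S and C1R lie tail to tail on chromosome 12, and the spans of C1S and LPCAT3 overlap in that annotation, on opposite strands.

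CFB (ENSG00000243649.8; chromosome 6, 31945650 to 31952084, plus strand) encodes factor B, the protease precursor of the alternative pathway, and it rose by the most, as a fold of the means, of the 8 genes that had a nonzero level in every mock library. In siFLuc cells at 8 h it read 45.2, 45.3 and 12.9 TPM with mock treatment and 202, 142 and 102 TPM with IFN. At 12 h the siFLuc values were 42.8, 39.5 and 19.5 TPM with mock treatment and 273, 324 and 130.3 TPM with IFN. The library numbered 4 was low in both arms, and within the column numbers the log2 difference at 8 h was 2.14, 1.62 and 2.89. In siBOP1 cells CFB read 64.6, 58.0 and 39.7 TPM in mock libraries at 8 h and 62.4, 68.0 and 54.8 TPM at 12 h. The siBOP1 IFN libraries read 232, 246 and 157 TPM at 8 h and 402, 415 and 225 TPM at 12 h. No IFN library overlapped a mock library. The means rose 4.31-fold at 8 h and 7.15-fold at 12 h with siFLuc, and 3.91-fold and 5.62-fold with siBOP1. The log2 fold changes were 2.22 and 2.78 (adjusted p 0.000912 and 6.07e-05) and 1.95 and 2.43 (adjusted p 0.0026 and 0.000283), with an SE of 0.42. Its start-site window, printed above, was the only one of the 12 that held both motifs.

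C3 (ENSG00000125730.17; chromosome 19, 6677704 to 6730562, minus strand) is the component on which all pathways meet, and it was the most abundant of the 9 under IFN but rose by less. In siFLuc cells at 8 h it read 149.6, 147 and 68.8 TPM with mock treatment and 319, 227 and 126 TPM with IFN. At 12 h the values were 177, 166 and 109 TPM with mock treatment and 389, 416 and 243 TPM with IFN. The groups overlapped at 8 h, through the IFN library numbered 4, and did not overlap at 12 h. In siBOP1 cells the mock libraries read 192, 139 and 104 TPM at 8 h and 196, 162 and 165 TPM at 12 h. Under IFN they read 355, 325 and 189.9 TPM and 442, 468 and 211 TPM. These groups too overlapped at 8 h and not at 12 h. With siFLuc the mean was 1.84-fold higher at 8 h and 2.32-fold higher at 12 h, and with siBOP1 1.99-fold and 2.14-fold. The log2 fold change of 1.20 in siFLuc cells at 12 h passed the test (adjusted p 0.0332). Those of 0.86 in siFLuc cells at 8 h (adjusted p 0.16), 0.98 in siBOP1 cells at 8 h (adjusted p 0.0796) and 1.01 in siBOP1 cells at 12 h (adjusted p 0.0709) did not, each with an SE of 0.37.

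The calls of C3 depended on single libraries and on the fit. Within each column number C3 was higher with IFN than with mock treatment in all 4 comparisons. Under the block on column number all 4 effects passed, at adjusted p of 0.000691, 2.02e-05, 0.000157 and 0.000116 for siFLuc at 8 h and 12 h and siBOP1 at 8 h and 12 h. Without the IFN library numbered 4 of the group itself, the log2 fold change was 1.22 (adjusted p 0.0477) with siFLuc at 8 h, 1.26 (0.0402) with siBOP1 at 8 h and 1.38 (0.0168) with siBOP1 at 12 h. Without the siFLuc mock 8 h library numbered 4 the siBOP1 effect at 12 h also passed (adjusted p 0.0494). The siFLuc call at 12 h was lost without the mock library numbered 2 (adjusted p 0.0561) or 4 (0.123), and without the IFN library numbered 1 (0.112) or 2 (0.134). It was also lost with no filter on low values (0.0869) and when the other 6 groups were left out of the fit (0.0515), and did not pass a threshold of 0.01.

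SERPING1, which encodes C1 inhibitor (ENSG00000149131.15; chromosome 11, 57597387 to 57614853, plus strand), went from listed at 0 to a low but clear level. It was listed at 0 in all 6 siFLuc mock libraries. In siFLuc IFN libraries it read 10.9, 5.89 and 6.29 TPM at 8 h and 12.8, 12.0 and 9.01 TPM at 12 h. In siBOP1 mock libraries it read 0.3, 0 and 0 TPM at 8 h and 0.141, 0.105 and 0.058 TPM at 12 h. The siBOP1 IFN libraries read 8.92, 13.5 and 4.96 TPM at 8 h and 13.0, 13.1 and 6.25 TPM at 12 h. Every IFN library was far above every mock library, and all 4 comparisons passed the test (adjusted p between 2.69e-09 and 3.98e-08). A gene was tested if it reached 1 TPM in 3 or more libraries, and SERPING1 did so only under IFN. It thus entered the test, and the counts above, through the groups where it was high. Its p-values are therefore no support apart from the levels themselves. No fold change is given, since the mock values are at or near 0 and the table keeps no counts. Even so, the inhibitor's message remained a small part of that of its target proteases: 2.21 ± 0.57% of the summed C1R and C1S TPM in siFLuc IFN libraries at 8 h, 2.12 ± 0.28% at 12 h, and 1.70 ± 0.60% and 1.44 ± 0.33% in siBOP1 IFN libraries (SD, n = 3).

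C5 (ENSG00000106804.7; chromosome 9, 120952335 to 121050276, minus strand), the precursor of the pore's starting fragment, was low in every library. It lay between 8.56 and 18.2 TPM over all 24 libraries, with log2 fold changes under IFN of 0.11 and -0.07 with siFLuc and -0.15 and -0.07 with siBOP1 (SE 0.16 each, adjusted p from 0.578 to 0.841). As C3 was higher under IFN, the ratio of C3 to C5 TPM was 8.08 ± 3.13 in siFLuc mock cells and 14.3 ± 8.14 in siFLuc IFN cells at 8 h, with overlapping libraries (SD, n = 3). At 12 h it was 10.6 ± 3.27 and 26.3 ± 9.54 (SD, n = 3), without overlap. With siBOP1 the ratio was 9.89 ± 3.33 in mock and 21.9 ± 7.04 in IFN libraries at 8 h, without overlap, and 14.2 ± 3.33 and 33.1 ± 17.9 at 12 h, where the groups overlapped (SD, n = 3).

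CD46, CD55 and CD59 protect the cell's own surface, and none of the 3 passed the test under IFN in the fit of all groups without the block. CD46 (ENSG00000117335.19; chromosome 1, 207752057 to 207795513, plus strand), a cofactor for the cleavage of C3b and C4b, lay between 93.9 and 152 TPM over all libraries, with log2 fold changes of -0.12, -0.16, 0.05 and -0.01 (siFLuc and siBOP1 at 8 h, then at 12 h; SE 0.10 each). CD59 (ENSG00000085063.16; chromosome 11, 33703010 to 33736491, minus strand) lay between 113 and 246 TPM, with log2 fold changes of 0.02, 0.02, 0.05 and 0.10 (SE 0.23 each). Its low values at 12 h were those of the libraries numbered 4, in mock and IFN groups alike (113 and 114 TPM with siFLuc, 133 and 157 TPM with siBOP1). The signs of the CD59 values, of the CD46 values at 12 h and of the C5 values in siBOP1 cells turned with the scaling, so no direction is given for them. The CD46 values at 8 h stayed below 0 in every alternative run and passed in none.

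CD55 (ENSG00000196352.15; chromosome 1, 207321376 to 207386804, plus strand), which speeds the decay of the C3-splitting enzymes, had slightly higher means with IFN. In siFLuc cells at 8 h it read 54.6, 59.4 and 64.7 TPM with mock treatment and 67.3, 66.2 and 67.9 TPM with IFN, without overlap. At 12 h the siFLuc values were 64.5, 56.3 and 107.95 TPM with mock treatment and 89.3, 85.9 and 121 TPM with IFN, which overlapped because the mock library numbered 4 was high. In siBOP1 cells at 12 h they were 62.3, 56.8 and 71.4 TPM against 81.4, 88.7 and 79.3 TPM, without overlap. In each column number CD55 was higher with IFN in all 4 comparisons. For siFLuc then siBOP1, the log2 fold changes at 8 h were 0.17 and 0.30 and those at 12 h 0.41 and 0.39, with an SE of 0.18 and adjusted p of 0.619, 0.281, 0.134 and 0.153. With the block the siFLuc change at 12 h passed (adjusted p 0.0407) and the siBOP1 change at 12 h did not (adjusted p 0.0511). With median-of-ratios scaling both changes of CD55 at 12 h passed (adjusted p 0.0462 with siFLuc and 0.0494 with siBOP1). With the libraries numbered 1 and 2 only, they passed at 0.00106 and 0.00135, and the siBOP1 change at 8 h passed at 0.00916. Without the siFLuc mock 12 h library numbered 4, the CD55 change at 12 h was 0.69 with siFLuc (adjusted p 0.00179), and the siBOP1 change of 0.39 also passed (adjusted p 0.0394).

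**Figure D2:**
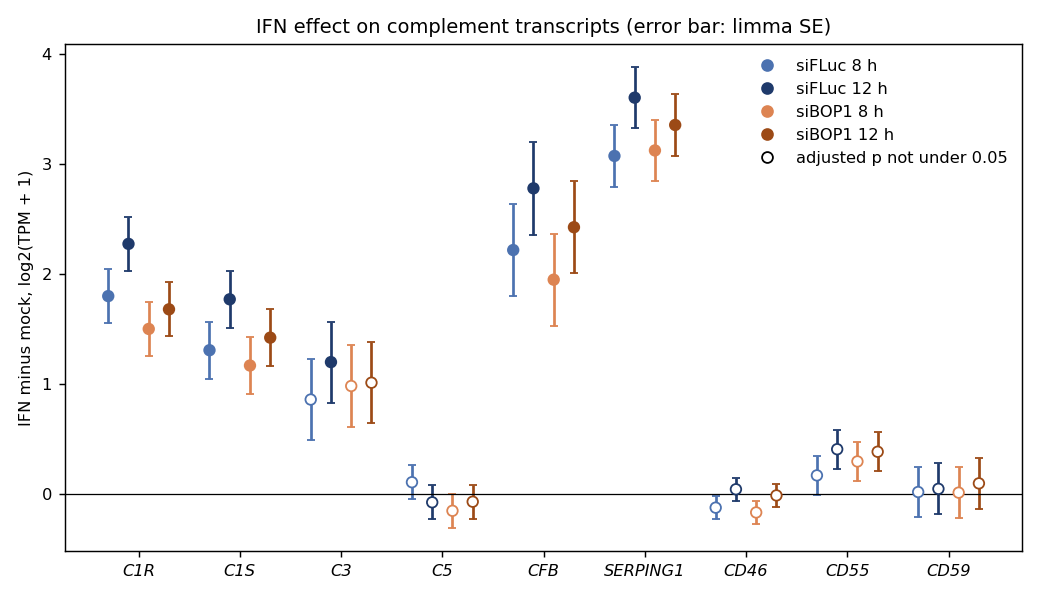
Difference between IFN and mock treatment in log2(TPM + 1) for each complement transcript, with the limma standard error; blue is siFLuc, orange is siBOP1, the darker shade is 12 h, and open circles did not pass an adjusted p of 0.05. C1R, C1S, CFB and SERPING1 are filled in all 4 comparisons and C3 in siFLuc cells at 12 h, while C5, CD46 and CD59 lie between -0.16 and 0.11.

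The make-up of the summed message of these 9 genes differed between mock and IFN groups. The sum leaves out other complement genes, such as CLU at 703 to 1308 TPM, so its shares hold for the 9 only. The summed TPM of the 9 was 693 ± 104 in siFLuc mock cells and 1144 ± 224 in siFLuc IFN cells at 8 h, and 711 ± 115 and 1569 ± 342 at 12 h (SD, n = 3). In siBOP1 cells it was 812 ± 95.2 and 1437 ± 250.3 at 8 h and 892 ± 88.2 and 1899 ± 436 at 12 h (SD, n = 3). CD46, CD55 and CD59 together held 58.5 ± 10.2% of that sum in siFLuc mock cells at 8 h and 35.7 ± 7.29% with IFN, then 53.9 ± 4.39% and 27.0 ± 4.88% at 12 h (SD, n = 3). With siBOP1 the 8 h shares were 48.4 ± 5.07% with mock treatment and 27.6 ± 2.70% with IFN, and the 12 h shares 44.5 ± 2.46% and 22.9 ± 2.65% (SD, n = 3). The IFN and mock ranges of this share did not overlap in any of the 4 pairs of groups. The ratio of CFB to C3 was also higher with IFN, at 0.69 ± 0.10 against 0.27 ± 0.07 in siFLuc cells at 8 h and 0.67 ± 0.13 against 0.22 ± 0.04 at 12 h (SD, n = 3). With siBOP1 it was 0.75 ± 0.09 against 0.38 ± 0.04 at 8 h and 0.95 ± 0.10 against 0.36 ± 0.06 at 12 h (SD, n = 3). These ratios are descriptions and were not tested.

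**Figure D3:**
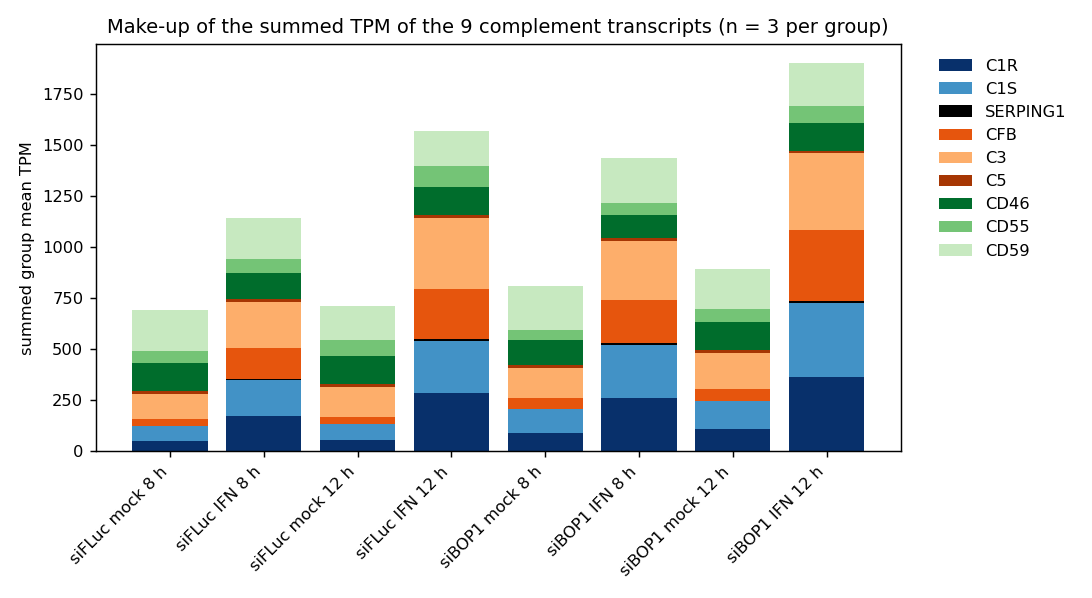
Group mean TPM of the 9 complement transcripts stacked to their sum, for each of the 8 groups (3 libraries each); blue marks C1R and C1S, orange and brown CFB, C3 and C5, green the membrane regulators, and black SERPING1. The sum is 693 and 711 TPM in the siFLuc mock groups and 1144 and 1569 TPM in the siFLuc IFN groups, and the blue and orange segments are taller in each IFN group than in its mock group.

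The second comparison was siBOP1 against siFLuc within each treatment and time. By the test without the block, none of the 9 complement genes passed in any of the 4 comparisons, while 1.49%, 1.25%, 0.903% and 0.392% of all genes tested were called higher and 0.666%, 0.76%, 0.697% and 0.268% lower (mock 8 h, IFN 8 h, mock 12 h and IFN 12 h). In the first, the 240 higher and 107 lower genes became 204 and 152 with median-of-ratios scaling and 227 and 168 with quantile scaling. At an unadjusted p under 0.05, limma gave 2, 2, 3 and 0 of the 9: C1R and C1S in the first 3 comparisons and CFB in mock cells at 12 h. Of all 16062 genes tested, 2076, 2191, 2051 and 1444 reached that threshold in the same fit. Blocking on the column number, 3, 2, 4 and 2 of the 9 were higher and none was lower, against 5.91%, 4.97%, 4.31% and 2.16% of all genes called higher by that fit. The IFN comparisons above and these ones share libraries, so they are not independent of one another.

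C1R had a higher mean with siBOP1 in all 4 comparisons, by 1.82-fold and 1.92-fold in mock cells at 8 h and 12 h and by 1.51-fold and 1.28-fold in IFN cells. The siFLuc and siBOP1 libraries listed above for C1R did not overlap in mock cells at either time or in IFN cells at 8 h, and overlapped in IFN cells at 12 h. The log2 differences were 0.89 (adjusted p 0.0647, with the block 0.00032) and 0.95 (0.0535, with the block 0.000239) in mock cells, and 0.59 (0.266, with the block 0.00575) and 0.36 (0.776, with the block 0.112) in IFN cells. The SE was 0.25 without the block and 0.12 with it. The results for C1R in mock cells stood near the threshold and changed when some single libraries were left out. At 8 h it passed without the siFLuc mock 8 h library numbered 2 (adjusted p 0.0447) or the siFLuc mock 12 h library numbered 4 (0.0434). At 12 h, leaving out any 1 of the 6 libraries compared gave no call (adjusted p 0.0681 to 0.21). In these runs C1R passed there only without a library of another group, which alters the shared spread but not the estimate. These were the siFLuc mock 8 h library numbered 2 (0.047) or 4 (0.0255), the siFLuc IFN 8 h library numbered 4 (0.0497), the siFLuc IFN 12 h library numbered 2 (0.0497) or 4 (0.0425), and the siBOP1 IFN 12 h library numbered 4 (0.0462).

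C1S followed with means 1.59-fold, 1.48-fold, 1.80-fold and 1.43-fold higher in mock 8 h, IFN 8 h, mock 12 h and IFN 12 h cells. Its libraries too did not overlap in the first 3 and overlapped in the last. The log2 differences were 0.72 (adjusted p 0.175), 0.59 (0.303), 0.88 (0.0968) and 0.53 (0.558), with an SE of 0.26. All 4 passed with the block, at adjusted p of 0.00317, 0.0128, 0.00105 and 0.039. Without the siFLuc mock 8 h library numbered 4, C1S also passed in mock cells at 12 h (adjusted p 0.0366).

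CFB was 1.57-fold, 1.42-fold, 1.82-fold and 1.43-fold higher in mean, in the same order, and its groups failed to overlap only in mock cells at 12 h. The log2 differences were 0.80, 0.53, 0.92 and 0.56 (SE 0.42, adjusted p from 0.36 to 0.812), and the 2 in mock cells passed with the block (adjusted p 0.028 at 8 h and 0.0155 at 12 h). In every column number C1R, C1S and CFB were higher with siBOP1 in all 4 comparisons. The step was uneven, however: for CFB in mock cells at 8 h it was 0.51, 0.35 and 1.56 on the log2 scale for the numbers 1, 2 and 4. In mock cells at 12 h the CFB steps were 0.53, 0.77 and 1.45. The largest step thus came from the library number in which the siFLuc level was lowest.

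The other members moved less between the siRNAs. For C3 the log2 differences were 0.29, 0.42, 0.24 and 0.05 (SE 0.37), and for C5 they were -0.02, -0.28, -0.19 and -0.19 (SE 0.16). CD46 gave -0.17, -0.21, 0.02 and -0.04 (SE 0.10), and CD55 gave -0.24, -0.12, -0.21 and -0.23 (SE 0.18). None of these passed with or without the block. CD59 differed by 0.11, 0.10, 0.23 and 0.28 (SE 0.23), and the values at 12 h passed with the block only (adjusted p 0.0367 in mock and 0.0225 in IFN cells). There the libraries numbered 4 were low in both siRNA groups, and the siBOP1 library was above its siFLuc partner in every column number. Under IFN, SERPING1 with siBOP1 differed from siFLuc by 0.18 at 8 h and -0.11 at 12 h on the log2 scale (SE 0.28), and neither passed. Its few nonzero mock values, all in siBOP1 cells, are at or below 0.3 TPM.

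**Figure D4:**
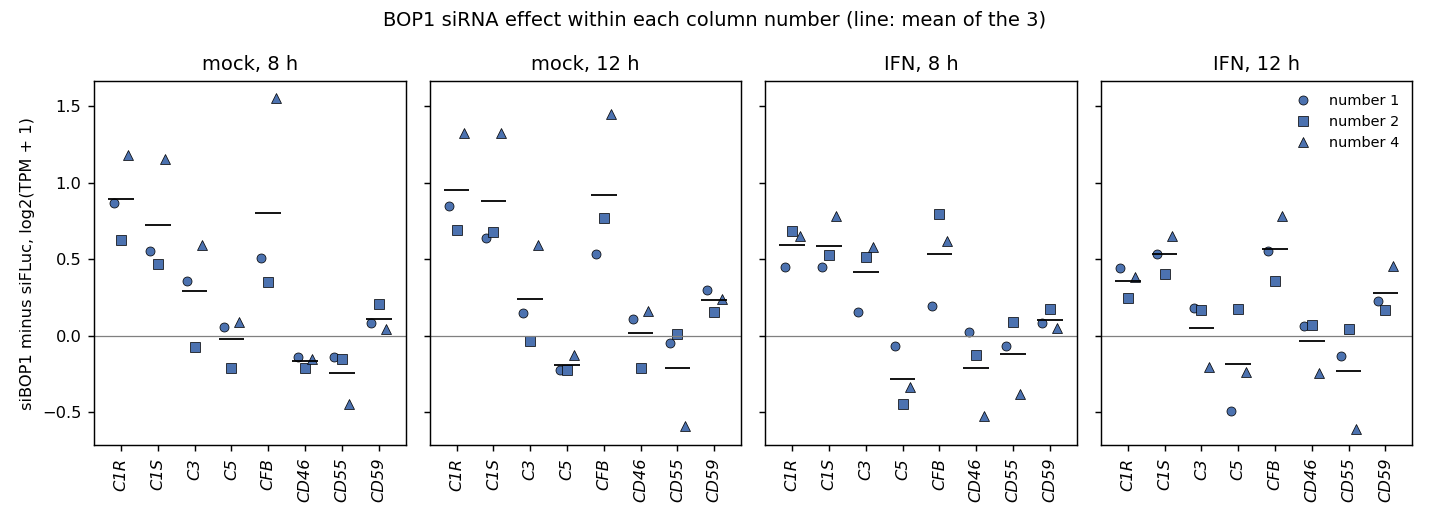
Difference between siBOP1 and siFLuc in log2(TPM + 1) within each column number, for 8 complement transcripts in the 4 combinations of treatment and time; circles, squares and triangles are the numbers 1, 2 and 4, and the line is their mean. All 3 markers lie above 0 for C1R, C1S and CFB in every panel, and the triangle is the highest of the 3 for these genes in both mock panels; SERPING1 is left out because its mock values are at or near 0.

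The third question was whether the response to IFN differed between the siRNAs or between the times. No complement gene passed either test, with or without the block. The siBOP1 response of C1R was smaller than the siFLuc one by 0.30 at 8 h and 0.59 at 12 h in estimate, given as log2 differences of -0.30 and -0.59 (SE 0.35). For C1S they were -0.14 and -0.35 (SE 0.36), for CFB -0.27 and -0.35 (SE 0.59), and for C3 0.12 and -0.19 (SE 0.52). The 12 h response minus the 8 h response was 0.47 for C1R, 0.46 for C1S, 0.56 for CFB and 0.34 for C3 with siFLuc. With siBOP1 it was 0.18, 0.25, 0.48 and 0.03 for the same genes. The adjusted p was 1.0 in limma for all of these. At an unadjusted p under 0.05 there were 0 of the 9 in each of the 4 tests, and with the block 0 and 1 for siRNA by IFN at 8 h and 12 h and 2 and 0 for time by IFN in siFLuc and siBOP1 cells. Of all 16062 genes, 575 and 603 reached that threshold for time by IFN without the block. With the block, 806 and 671 did so for siRNA by IFN and 1368 and 1505 for time by IFN. Few genes of any kind passed: 0.0% of all genes in both siRNA by IFN tests, also with the block (353 and 259 genes reached an unadjusted p under 0.05), 0.00623% for time by IFN with siFLuc and 0.0% with siBOP1, and with the block 0.0249% for time by IFN in each.

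Other complement genes were read from a list of 51, of which 20 passed the filter on low values and 10 were listed at 0 in every library. Under IFN, 2 of the 20 were higher with siFLuc at 8 h, 5 with siBOP1 at 8 h, 7 with siFLuc at 12 h and 5 with siBOP1 at 12 h, and none was lower by limma, with the block or at an unadjusted p under 0.05. Of all genes tested, 5.77%, 5.99%, 7.06% and 7.17% were higher in these comparisons. The 20 had a median log2 fold change of 0.13, 0.17, 0.31 and 0.26. With the block the counts were 4, 6, 8 and 8, against 8.24%, 8.56%, 11.2% and 11.4% of all genes.

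The substrates of C1s were present at low levels. C4A, which encodes one form of C4, had means of 0.265 and 0.718 TPM in siFLuc mock cells at 8 h and 12 h and of 1.85 and 4.16 TPM with IFN, and it rose in 3 of the 4 IFN comparisons. C4B, the other form, rose in 3, with log2 fold changes of 1.20 to 1.64, and its 0.59 with siFLuc at 8 h did not pass (adjusted p 0.334). C4B reached 1 TPM only in IFN libraries, so it entered the test through the groups where it was high. C4A and C4B are near-identical copies and how reads were divided between them is not given in the sources used here, so their separate values are uncertain. C2, the other substrate, lay between 0.262 and 1.68 TPM and was not called. The recognition subunits that C1r and C1s work with were all but absent: C1QA and C1QB were listed at 0 in 23 of 24 libraries and C1QC in all 24. The lectin-pathway genes MBL2, FCN1, FCN2, FCN3 and COLEC10 were listed at 0 throughout.

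Beyond C3 and CFB, the alternative pathway was represented by CFD, the protease that cleaves factor B, at 37.6 to 108 TPM with no call under IFN. Without the block CFD was not called with siBOP1 either. With the block CFD was higher with siBOP1 in IFN cells at 8 h (adjusted p 0.00369) and 12 h (0.0222). It was then also higher in mock cells at 12 h (adjusted p 0.0117). Of the pore components after C5, C8A and C8B were listed at 0 in all libraries, and C6, C7 and C9 did not exceed 0.347 TPM. Among the other regulators, CLU was abundant at 703 to 1308 TPM, VTN lay at 11.1 to 33.2 TPM, C1QBP at 308 to 521 TPM and CFI, the protease that cuts C3b with CD46 as a cofactor, at 2.94 to 9.24 TPM. None of these was called without the block. With it, VTN was called in 4 of the 8 comparisons of IFN or siRNA, CLU in 2, C1QBP in 1 and CFI in 0. Those of VTN under IFN were at 12 h (adjusted p 0.0342 with siFLuc and 0.0108 with siBOP1). CR1L, a relative of the receptor gene CR1, rose in 3 of the 4 IFN comparisons from a mock mean of at most 0.109 TPM, to 1.85 ± 0.35 TPM in siFLuc cells at 12 h and 3.45 ± 1.00 TPM in siBOP1 cells at 12 h (SD, n = 3). In IFN cells at 8 h CR1L was also higher with siBOP1 than with siFLuc, with means of 2.54 and 0.602 TPM. That log2 difference was 1.09 (adjusted p 0.0147 in limma, with the block 0.00797). C1RL, a C1r-like protease gene, rose in siFLuc cells at 12 h, from 24.8 ± 7.09 to 43.01 ± 3.14 TPM (SD, n = 3). With the block C1RL was higher in all 4 IFN comparisons (adjusted p from 0.00157 to 0.0451). It was then also higher with siBOP1 in mock cells at 12 h (adjusted p 0.0354).

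Of the receptors, C3AR1, which binds the C3a fragment, went from 0.007 TPM or less in mock means to 0.93 ± 0.61 TPM in siFLuc IFN cells at 8 h and 1.02 ± 0.26 TPM at 12 h (SD, n = 3). It rose in 3 of 4 comparisons and did not pass with siBOP1 at 12 h (adjusted p 0.0775). C3AR1, CR1L and C4B reached 1 TPM only in IFN libraries, so they entered the test, and the counts over the 20, through the groups where they were high. CALR, a chaperone that also binds C1q, rose by 0.25 with siFLuc (adjusted p 0.0146) and 0.25 with siBOP1 (adjusted p 0.0106) at 12 h on the log2 scale. With the block CALR was lower with siBOP1 in IFN cells at 8 h (adjusted p 0.0486) and 12 h (0.0438). It was then also lower in mock cells at 12 h (adjusted p 0.022). In the siBOP1 comparisons 2, 2, 2 and 1 of the 20 were higher (mock 8 h, IFN 8 h, mock 12 h, IFN 12 h) and none lower by limma (0, 1, 2 and 2 at an unadjusted p under 0.05), against 1.49%, 1.25%, 0.903% and 0.392% of all genes called higher. ITGAX, a subunit of a receptor for cleaved C3, was higher with siBOP1 in all 4, by 1.00, 0.71, 0.65 and 0.91 on the log2 scale (SE 0.16, adjusted p 0.00123, 0.0183, 0.0368 and 0.00453). Its level was low, at 0.966 to 4.17 TPM. ITGB2, the other subunit of that receptor, lay at 1.89 to 6.19 TPM and was not called without the block. With the block it was higher with siBOP1 in IFN cells at 8 h (adjusted p 0.007) and mock cells at 12 h (0.00675). With the block the counts were 4, 6, 5 and 2 higher and 0, 1, 2 and 1 lower, against 5.91%, 4.97%, 4.31% and 2.16% of all genes higher and 2.58%, 3.84%, 3.35% and 1.61% lower.

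The 5 genes whose group means spanned more than 1 on the log2 scale were compared with every tested gene by the root mean square difference between their 8 centred group means of log2(TPM + 1). C3, with a span of 1.61, was most like NAMPT (difference 0.07), ITGA2 (0.09) and S1PR2 (0.09). SERPING1, with a span of 3.60, had HLA-E (0.13) and HSH2D (0.14) among the 3 genes most like it. C1S was most like NTNG2, TCN2 and KLHDC7B-DT (0.14, 0.14 and 0.16, span 2.36). C1R came closest to CACNG6, C4orf33 and CD40 (0.16, 0.19 and 0.20, span 2.88), and CFB to ODF3B, CACNG6 and PLA1A (0.18, 0.22 and 0.25, span 3.44). The 8 points share their libraries, and a small difference is a description of these groups only.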

How the data were processed

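Polyadenylated RNA of 24 A549 libraries was measured; per the labels' protocols, RNA was taken with TRIzol and a spin column with DNase and made into stranded mRNA libraries. The authors deposited a table of TPM values, 60609 gene rows by 24 columns, each summing to 1000000. The aligner, quantification tool, genome build and annotation are not given in the sources used here. Depth cannot be read from TPM, so it is unknown here, and intervals or floors from counts cannot be given.

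Columns were matched to samples by group and number; 16 carry a number of the labels, and the 8 numbered 4 entered only as libraries of their group. The test used limma 3.58.1 (R 4.3.3) on log2(TPM + 1) and covered the 16062 genes, all 9 members among them, that reached 1 TPM in 3 or more libraries (1 mean per group, shared spread, intensity trend, no block), two-sided, with Benjamini-Hochberg adjustment over genes in each of 12 comparisons, threshold 0.05. Fold changes on this scale understate the change of low genes. The code was tested on simulated data. The alternatives were a pseudocount of 0.1, no low-value filter, a mean of at least 5 TPM, median-of-ratios and quantile scaling, no trend, only the groups compared, the replicate block, a threshold of 0.01 and each library left out in turn; the libraries numbered 1 and 2 alone were added after seeing the data.

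Same-numbered libraries deviated from their group means together: over the 8 two-group comparisons the correlation across genes ran from 0.115 to 0.508 for the 3 column numbers, so the number was taken as a pairing, from the data and column names and not from the labels. Computed on the numbers 1 and 2 only, the correlation lay between -0.01 and 0.16, above 0.1 in 3 comparisons.

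The members, gene lists and motifs were chosen with earlier results of these data known. The text names the 9 members, BOP1, listed complement genes called at least once or with a group mean of at least 5 TPM, 2 protein-coding neighbours on each side, and the 3 genes most like each member in pattern; genes listed at 0, C2 and the pore components C6, C7 and C9 were named after their values were seen. Results for some listed genes are not reported here, while the counts over the lists include them.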

Additional observations from a re-analysis of the deposited data

How the results depend on the processing

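TPM carries no depth, and 3 libraries per group set the precision. With the replicate block on the column number, 3, 2, 4 and 2 complement genes were called for siBOP1 against siFLuc (mock 8 h, IFN 8 h, mock 12 h, IFN 12 h), where the fit without it called 0. With the libraries numbered 1 and 2 only, the counts were 2, 2, 3 and 1. The share of all genes called in that run is not reported here. A mean of at least 5 TPM gave 1 in mock cells at each time and drops SERPING1. Leaving out 1 library gave 4 to 5 called genes for each IFN effect, 0 to 1 for siBOP1 in mock cells at 8 h, 0 to 2 at 12 h, and 0 for siBOP1 in IFN cells and for the interactions. The shares of all genes called with a mean of at least 5 TPM, or with 1 library left out, are not reported here either. Where a call was gained or lost the cause was not tested.

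Over all genes, the block gave 1364, 1415, 1231 and 606 calls for siBOP1 against siFLuc in place of 347, 322, 257 and 106, and a fit of only the groups compared gave 41, 23, 10 and 1. For IFN (siFLuc 8 h, siBOP1 8 h, siFLuc 12 h, siBOP1 12 h) the block gave 3370, 4653, 4326 and 4487 in place of 1741, 2426, 2166 and 2370, and only the groups compared gave 1186, 2501, 951 and 1634.

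The log2 estimates whose sign turned were not called without the block. With quantile scaling CD59 under IFN turned to -0.058 (siFLuc 8 h), -0.064 (siBOP1 8 h), -0.024 (siFLuc 12 h) and -0.0085 (siBOP1 12 h), CD46 (siFLuc 12 h) to -0.027 and the C3 time by IFN term (siBOP1) to -0.019. With median-of-ratios scaling C5 turned to 0.0014 (siBOP1 8 h) and 0.00067 (siBOP1 12 h), CD46 to 0.063 (siBOP1 12 h), and that C3 term to -0.057. With the numbers 1 and 2 only, CD46 under IFN turned to -0.081 (siFLuc 12 h) and 0.038 (siBOP1 12 h), CD46 with siBOP1 to -0.052 (mock 12 h) and 0.067 (IFN 12 h), CD55 with siBOP1 to 0.012 (IFN 8 h) and SERPING1 with siBOP1 to 0.068 (IFN 12 h). There the siRNA by IFN terms of CFB (8 h) and C3 (12 h) turned to 0.066 and 0.12. Leaving out each library in turn, the IFN effect ranged for CD59 from -0.019 to 0.047 (siFLuc 8 h), -0.016 to 0.062 (siBOP1 8 h), -0.21 to 0.33 (siFLuc 12 h) and -0.16 to 0.29 (siBOP1 12 h). For CD46 it ranged from -0.036 to 0.10 (siFLuc 12 h) and -0.069 to 0.062 (siBOP1 12 h), and for C5 from -0.21 to 0.15 (siBOP1 12 h). The siBOP1 effect ranged for C3 from -0.072 to 0.51 (mock 8 h) and -0.19 to 0.42 (IFN 12 h), for C5 from -0.073 to 0.033 (mock 8 h) and -0.32 to 0.030 (IFN 12 h), and for SERPING1 from -0.13 to 0.51 (IFN 8 h) and -0.27 to 0.21 (IFN 12 h). For CD55 it ranged from -0.21 to 0.0043 (IFN 8 h) and -0.39 to 0.069 (mock 12 h), for CD46 from -0.064 to 0.078 (mock 12 h) and -0.069 to 0.022 (IFN 12 h), and for CD59 from -0.031 to 0.49 (mock 12 h). The siRNA by IFN term ranged for C1S from -0.35 to 0.21 (8 h), for CFB from -0.56 to 0.31 (8 h) and for C3 from -0.24 to 0.49 (8 h) and -0.43 to 0.18 (12 h). The C3 time by IFN term ranged from -0.022 to 0.71 (siFLuc) and -0.25 to 0.40 (siBOP1). Median-of-ratios scaling moved the median IFN effect of all genes by over 0.1 only with siBOP1 at 8 h, from -0.14 to -0.0061.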

Other observations

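Genes beside the complement genes on the chromosome were read from the RefSeq table (GRCh38.p14), taking 2 protein-coding genes on each side. This gave 33 different neighbours, C1R and C1S among them, of which 25 were tested, 14 were called in at least 1 IFN comparison and 6 in all 4. Of all 16062 genes tested, 23.9% were called in at least 1 and 6.39% in all 4, in either direction. Besides C1R and C1S, the 4 called in every IFN comparison were LPCAT3, TNFSF14, UBE2L6 and LMO2. UBE2L6, the conjugating enzyme for ISG15, lies 29.8 kb from SERPING1 and rose by 3.96 to 4.18 on the log2 scale. LMO2, a transcriptional cofactor gene 122 kb from CD59, rose by 3.33 to 3.68 (mean 6.94 TPM over all libraries), while CD59 passed no IFN comparison. The mock levels of LMO2 are not reported here, and it may have passed the filter on low values only through IFN libraries. TNFSF14, which encodes the cytokine LIGHT, lies 7.12 kb from C3 and rose by 1.15 to 1.51 from a low level (mean 2.65 TPM over all libraries). Other neighbours of C3 were lower: CD70 in siFLuc cells at 8 h (-0.61, adjusted p 0.019 in limma) and 12 h (-0.61, adjusted p 0.0148). TRIP10 was lower in siBOP1 cells at 8 h (-0.44, adjusted p 0.0143 in limma), and GPR108 was not called.

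LPCAT3, a lysophospholipid acyltransferase gene beside C1S, rose by 0.43 to 0.58 on the log2 scale, against 1.17 to 1.77 for C1S. C1RL, 2.11 kb from C1R, was called without the block in siFLuc cells at 12 h only (0.81, adjusted p 0.0172 in limma), with estimates of 0.46 to 0.61 in the other 3. With the block those 3 passed as well (adjusted p from 0.0109 to 0.0451). Of the tested neighbours of CFB, namely C2, ZBTB12, NELFE and SKIC2, only SKIC2 was called, in siBOP1 cells at 12 h (0.72, adjusted p 0.0322 in limma). None of the 4 tested neighbours of C5 was called. Beside CD46, CR1L was called in 3 of the 4 IFN comparisons and PLXNA2 also in 3. Of 2 further neighbours of CD59, KIAA1549L (-0.72, adjusted p 0.00333) and FBXO3 (-0.53, adjusted p 0.0228) were lower in siFLuc cells at 12 h in limma and in no other IFN comparison.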
